A study of Mus musculus with 6 samples.

Results

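Matrix metalloproteinases are zinc-dependent endopeptidases that cut collagens and other proteins of the extracellular matrix, and the tissue inhibitors of metalloproteinases (TIMPs) bind their active sites. Most of the enzymes are made as inactive precursors, so that transcript level, activation and inhibition each set how much matrix is cut. Fibroblasts of the gingiva, or gum, make both enzymes and inhibitors, and both are known for their part in gum remodelling and in periodontal tissue loss. The 10 genes described here are 7 metalloproteinases (Mmp2, Mmp3, Mmp10, Mmp11, Mmp13, Mmp14 and Mmp19) and 3 inhibitors (Timp1, Timp2 and Timp3). They were found by gene name among the 20665 genes of the deposited table, 1 identifier each, and all 10 passed the filter on low values.

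RNA-seq was run on total RNA of primary gingival fibroblasts of wild-type C57BL/6 mice. In 3 libraries (replicates 1, 2 and 3) the cells in a 35-mm dish had received Er:YAG laser light at 3.9 J/cm2 from 25 cm away, an infrared laser used on teeth and gums. The 3 non-irradiated libraries carry the same replicate numbers, and both groups are labelled 3 h. All cells were grown in medium with 10% fetal bovine serum, the non-irradiated ones included. The sources used here give neither the age and sex of the mice nor the number of animals behind a culture. Nothing in the labels says what a replicate number stands for, or that libraries came from separate cultures, so p-values measure the spread between these libraries, which may in part be technical.

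The libraries held 45178137 to 59904715 reads assigned to genes, most in non-irradiated replicate 1. Fibroblast markers other than Lum were abundant in every library, with Col1a1, a chain of type I collagen, at 1.54% to 2.02% of reads. Lum was low in replicate 1, at 50.3 and 59.2 normalized counts in the irradiated and non-irradiated library. Of 9 keratinocyte markers 5 (Krt5, Krt14, Krt15, Krt6a and Trp63) are not in the table, and the other 4 summed to 17.3 to 81.2 normalized counts in irradiated and 25.4 to 45.7 in non-irradiated libraries. Leukocyte markers (7 of 9 in the table) summed to 546 to 1070 and 615 to 1018 normalized counts in irradiated and non-irradiated libraries, with Ptprc, the pan-leukocyte marker, at most 14.2 and 15.2. Here a normalized count is a read count divided by the authors' size factor for the library.

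Of the 10 genes, Mmp3, Mmp10 and Mmp13 stand in 1 cluster of metalloproteinase genes on mouse chromosome 9, and they varied most across the 6 libraries. Their promoters are shown because these 3 genes moved together between libraries. RefSeq promoter sequences of build GRCm38.p6, from 250 bases before to 50 bases after the annotated start, were matched for 8 of the 10 genes (all but Mmp2 and Mmp19). Capitals mark matches to TGANTCA, the core of the site bound by the AP-1 factors of the FOS and JUN families, searched on both strands.

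Mmp3, chr9:7445572-7445871, plus strand: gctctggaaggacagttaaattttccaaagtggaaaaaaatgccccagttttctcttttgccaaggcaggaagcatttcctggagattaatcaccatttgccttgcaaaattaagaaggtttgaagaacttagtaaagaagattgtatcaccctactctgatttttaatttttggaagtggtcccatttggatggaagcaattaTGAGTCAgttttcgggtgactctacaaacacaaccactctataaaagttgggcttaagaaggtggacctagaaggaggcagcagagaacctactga

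Mmp10, chr9:7502092-7502391, plus strand: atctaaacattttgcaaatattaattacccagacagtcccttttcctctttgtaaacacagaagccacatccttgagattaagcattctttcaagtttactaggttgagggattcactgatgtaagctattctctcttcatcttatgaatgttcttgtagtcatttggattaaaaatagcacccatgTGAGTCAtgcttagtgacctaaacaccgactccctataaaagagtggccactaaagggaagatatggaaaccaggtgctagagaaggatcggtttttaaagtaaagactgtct

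Mmp13, chr9:7272264-7272563, plus strand: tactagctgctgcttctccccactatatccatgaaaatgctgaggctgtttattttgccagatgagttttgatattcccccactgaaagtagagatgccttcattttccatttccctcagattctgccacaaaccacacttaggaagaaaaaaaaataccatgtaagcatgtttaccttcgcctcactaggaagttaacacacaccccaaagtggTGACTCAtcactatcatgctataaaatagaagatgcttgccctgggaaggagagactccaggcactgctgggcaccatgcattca

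Each of these 3 windows holds 1 TGANTCA match, whose first base lies at position -46 in Mmp3, -63 in Mmp10 and -35 in Mmp13, counting the base before the annotated start as -1. None of the 5 other matched promoters (Mmp11, Mmp14, Timp1, Timp2 and Timp3) holds those letters in this window, and 7.81% of 32851 promoters of this length do. The letters TATAAA, on either strand, are likewise in these 3 windows and in none of the other 5, against 13.6% of all promoters, and they do not overlap the TGANTCA match. AGGAAG, a core bound by ETS factors, occurs on either strand in the windows of Mmp3, Mmp13, Mmp14, Timp1 and Timp3, against 35.4% of all promoters. Both motifs also stand in a window of 5 of the 7 other metalloproteinase genes of the cluster (Mmp1a, Mmp1b, Mmp7, Mmp12 and Mmp20, of which Mmp7 and Mmp12 have another window without them), genes with few reads or no row in the table. These are letter matches, and no measurement of binding was used here.

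Per kilobase of exon, the inhibitors were the most abundant of the 10 transcripts and the 3 clustered enzymes the least. Timp1 averaged 35675 ± 6492 normalized counts per kilobase (SD over the 6 libraries), Timp2 25836 ± 2290 and Timp3 13059 ± 3912. Among the enzymes, Mmp14, a membrane-anchored protease that activates pro-Mmp2 on the cell surface, averaged 6780 ± 747, and Mmp2, a gelatinase, 6361 ± 1585. Mmp11, a stromelysin that furin activates inside the cell, followed with 574 ± 254 per kilobase and Mmp19, a broadly expressed secreted protease, with 490 ± 61.8. The lowest were Mmp10 at 124 ± 137, Mmp3 at 110 ± 90.0 and Mmp13 at 61.2 ± 43.7 per kilobase.

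**Figure D1:**
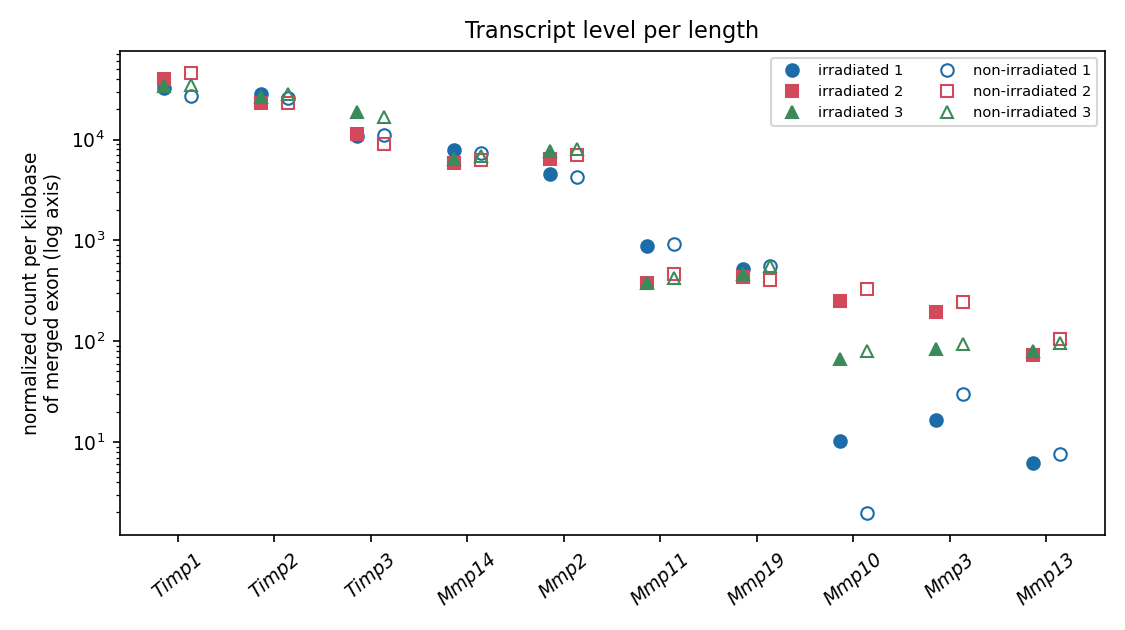
Normalized counts per kilobase of merged exon (log axis) of the 10 genes in order of their mean, with filled symbols for irradiated and open symbols for non-irradiated libraries and 1 colour and shape per replicate number. Timp1 and Timp2 lie at 23032 or more in every library, and Mmp10, Mmp3 and Mmp13 at 29.6 or less in both replicate 1 libraries.

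In that order, neighbours whose ranges over the 6 libraries overlapped were Timp1 and Timp2, Mmp14 and Mmp2, Mmp11 and Mmp19, and Mmp10, Mmp3 and Mmp13 among themselves. The ranges did not overlap between Timp2 and Timp3, between Timp3 and Mmp14, between Mmp2 and Mmp11, or between Mmp19 and Mmp10. Lengths come from GENCODE M21, and taking the longest transcript in place of merged exons gave the same order of means. Timp2 then stood at 27138 ± 2406, Timp3 at 22523 ± 6747 and Mmp14 at 12479 ± 1374 per kilobase (SD over the 6 libraries). The gap between the ranges of Timp2 and Timp3 therefore held for merged exons only. Summed per kilobase of merged exon, the 3 inhibitors stood at 5.18, 5.45 and 5.21 times the 7 enzymes in irradiated replicates 1, 2 and 3. The non-irradiated ones had 4.86, 5.24 and 4.93 times. These ratios depend on the lengths used and were not taken with the longest transcript. With merged exons the ratio was higher in the irradiated library in 3 of 3 pairs, and the groups overlap. It was not tested. Mmp2 and Mmp14 made up 88.6% to 92.9% of the enzyme sum in each library.

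Irradiated and non-irradiated libraries were compared to see what laser light does to these transcripts at 3 h. None of the 10 genes differed between the groups in limma with the replicate number as a block, at an adjusted p of 0.05 over all 16141 genes tested. The background was low, since 0.0186% of all tested genes (3 genes) passed in this fit, all of them lower in irradiated cells. With the block, edgeR (2 genes) and voom (3 genes) also called lower genes only. DESeq2 with the block called genes in both directions, 17 higher and 8 lower. The split was 16 to 8 in the authors' deposited table. At an unadjusted p under 0.05 there were likewise 0 of the 10, where 3.26% of all genes passed, and edgeR, DESeq2 and voom with the block and the authors' deposited table each called 0 of the 10. The groups overlapped in all 10 genes, where 4.73% of tested genes had groups that did not overlap (2.08% higher and 2.65% lower in irradiated cells). The median log2 fold change of the 10 was -0.04, with 6 below 0, beside a median of 0.01 over all tested genes.

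**Figure D2:**
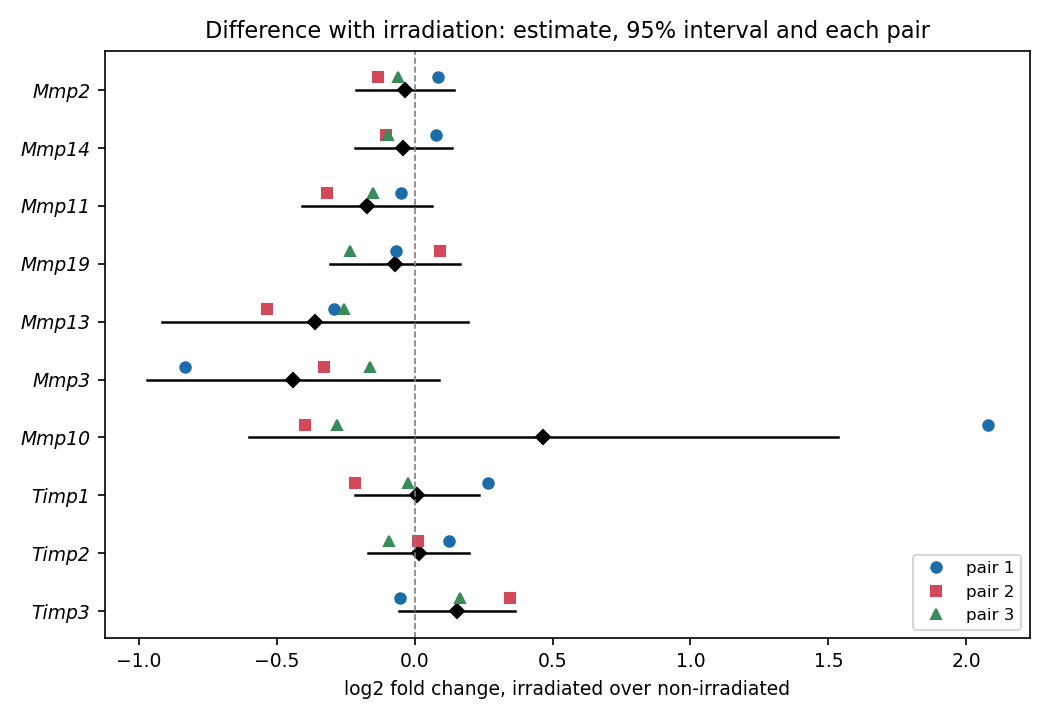
Log2 fold change of irradiated over non-irradiated libraries for the 10 genes, as the limma estimate (diamond) with its 95% interval (line) and the value in each pair of same-numbered libraries (coloured symbols above the line). Every interval crosses 0, and the widest is that of Mmp10, whose pair 1 stands at 2.08 and pairs 2 and 3 at -0.40 and -0.28.

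The gelatinase and its activator showed small differences. Mmp2 had 15382, 21850 and 25945 normalized counts in irradiated replicates 1, 2 and 3, against 14509, 23946 and 27036 in non-irradiated replicates 1, 2 and 3. Both groups ran low in replicate 1, and the log2 fold change was -0.04 ± 0.08 (SE, limma with the block, adjusted p = 0.995). Mmp14 had 46622, 34728 and 38470 normalized counts in irradiated libraries, against 44186, 37309 and 41131 in non-irradiated ones. Here replicate 1 was the highest in both groups, and the log2 fold change was -0.04 ± 0.08 (SE).

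Among the less abundant secreted enzymes, Mmp11 had 2455, 1045 and 1053 normalized counts in irradiated replicates 1, 2 and 3, against 2539, 1301 and 1169 in the non-irradiated ones. It was lower with irradiation in 3 of 3 pairs, by 0.05, 0.32 and 0.15 on the log2 scale, and did not pass (log2 fold change -0.17 ± 0.10, SE, limma adjusted p = 0.995). Mmp19 had 1858, 1535 and 1657 normalized counts in irradiated libraries, against 1947, 1441 and 1949 in non-irradiated ones, with a log2 fold change of -0.07 ± 0.10 (SE). Both genes overlap an exon of a gene on the opposite strand (Mmp11 with Chchd10, Mmp19 with Tmem198b and Gm47093), and the sources used here do not give the strand setting of the counting. The 50-base stretches shared with other transcripts made up 3.72% of Mmp11 and 24.7% of Mmp19. Their values are therefore uncertain by what the partners contribute, and Tmem198b had 1327 to 1708 normalized counts in irradiated and 1293 to 1511 in non-irradiated libraries.

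The 3 clustered enzymes, the collagenase Mmp13 and the stromelysins Mmp3 and Mmp10, had few reads and wide intervals. Mmp13, the main fibrillar collagenase of rodent connective tissue, had 16.4, 194 and 215 normalized counts in irradiated replicates 1, 2 and 3, against 20.3, 281 and 256 in the non-irradiated ones. It was lower in 3 of 3 pairs (log2 fold change -0.36 ± 0.24, SE, limma adjusted p = 0.995). Mmp3, which cuts proteoglycans and activates other metalloproteinase precursors, had 29.5, 347 and 151 normalized counts in irradiated libraries, against 53.3, 436 and 169 in non-irradiated ones. This gene too was lower in 3 of 3 pairs and did not pass (log2 fold change -0.44 ± 0.23, SE, limma adjusted p = 0.995). With Mmp11 these made 3 of the 10 genes lower in 3 of 3 pairs and 0 higher, where 11.0% of all tested genes were lower and 11.8% higher in 3 of 3 pairs.

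Mmp10, the stromelysin closest in sequence to Mmp3, had 17.5, 435 and 114 normalized counts in irradiated replicates 1, 2 and 3, against 3.38, 573 and 138 in the non-irradiated ones. In pair 1 these values rest on 16 reads (95% exact Poisson interval 9.15 to 26.0) in the irradiated library and 4 reads (1.09 to 10.2) in the non-irradiated one, intervals that cover counting error only. The log2 fold change of 0.47 ± 0.47 (SE, limma adjusted p = 0.995) took its sign from that pair: without both replicate 1 libraries it was -0.34, and voom with the block gave -0.33. The authors' deposited table gives 0.16. Of the 50-base stretches of Mmp10, 8.37% also occur in Mmp3, and of those of Mmp3, 8.39% also occur in Mmp10 or the gene model Gm15244, so reads of common stretches could be split between these genes.

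None of the 3 inhibitors moved the same way in 3 of 3 pairs. Timp1, a soluble inhibitor of most secreted metalloproteinases, had 28908, 35170 and 30287 normalized counts in irradiated replicates 1, 2 and 3, against 24016, 40892 and 30804 in the non-irradiated ones (log2 fold change 0.01 ± 0.10, SE, limma adjusted p = 0.998). It was higher with irradiation in pair 1 and lower in pairs 2 and 3. Timp2, which inhibits metalloproteinases and also helps Mmp14 to activate pro-Mmp2, had 110375, 90539 and 102575 normalized counts in irradiated libraries, against 101232, 89731 and 109484 in non-irradiated ones. Its log2 fold change was 0.01 ± 0.08 (SE).

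Timp3, the inhibitor that binds to the matrix itself, had 87932, 93566 and 154229 normalized counts in irradiated replicates 1, 2 and 3, against 91170, 73608 and 137610 in the non-irradiated ones. It was higher in pairs 2 and 3 and slightly lower in pair 1, with a log2 fold change of 0.15 ± 0.09 (SE, limma adjusted p = 0.995). Its exons overlap those of Syn3 on the opposite strand, and 21.4% of its 50-base stretches are shared with other transcripts. Syn3 itself had at most 56.7 normalized counts in irradiated and 60.9 in non-irradiated libraries, where Timp3 had 73608 or more.

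A p that misses the threshold does not show equal levels, so the intervals are given. Over Mmp2, Mmp11, Mmp14, Mmp19 and the 3 inhibitors, the 95% intervals of the fold in limma with the block, irradiated over non-irradiated, lay between 0.754 and 1.29. For the 3 clustered enzymes they were wider, at 0.511 to 1.06 for Mmp3, 0.530 to 1.14 for Mmp13 and 0.660 to 2.90 for Mmp10.

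**Figure D3:**
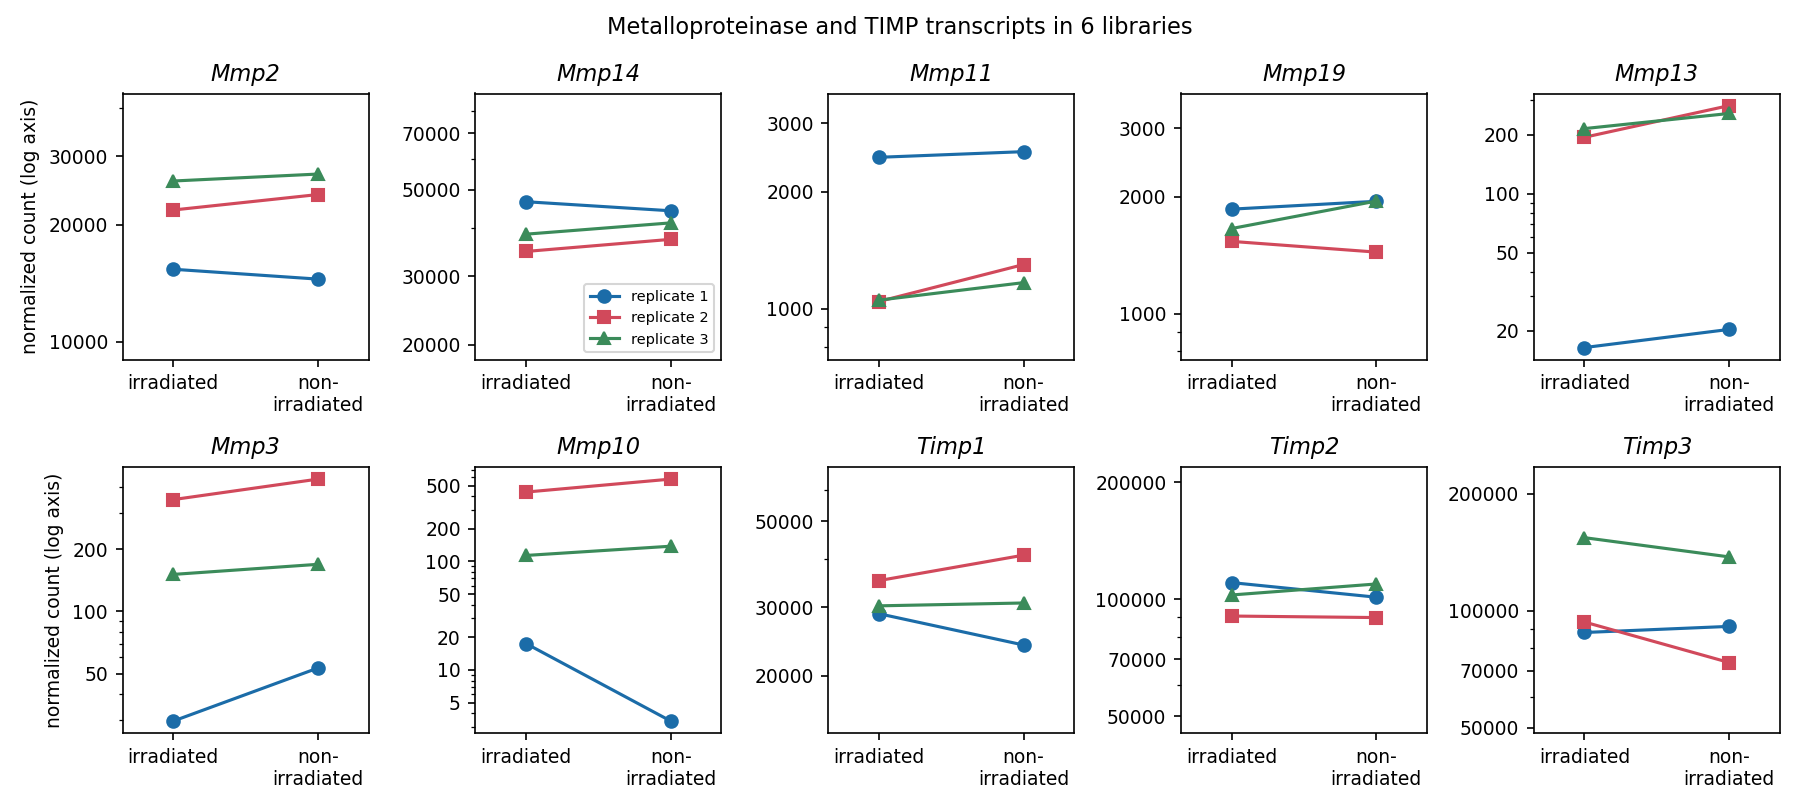
Normalized counts (log axis, each panel with its own range) of the 10 genes in irradiated (left) and non-irradiated (right) libraries, with a line joining libraries of the same replicate number. The groups overlap in every panel, and Mmp13 stands at 16.4 and 20.3 in replicate 1 and between 194 and 281 in the other 4 libraries.

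Between the replicate numbers the same genes differed widely. In limma, with irradiation as the other term, 7 of the 10 genes differed between replicate numbers at an adjusted p of 0.05 over all genes: Mmp2, Mmp3, Mmp10, Mmp11, Mmp13, Timp1 and Timp3. The background was 13.4% of all tested genes, 17.0% of the 7230 genes whose mean normalized count was 1000 or more, and 16.0% of the 4809 genes between 100 and 1000. Replicate number took 80.2% to 98.8% of each gene's sum of squares on the log2 scale and irradiation 0.03% to 4.28%, beside medians of 62.6% and 6.49% over all tested genes. Timp1 stood at the threshold (adjusted p = 0.0485 in limma, and 0.0513 with a pseudocount of 0.5). Mmp14, Mmp19 and Timp2 did not pass (limma adjusted p = 0.101, 0.177 and 0.209).

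Replicate 2 was above replicate 1 for 5 of the 10 genes (Mmp2, Mmp3, Mmp10, Mmp13 and Timp1) and below it for 1 (Mmp11) at a limma adjusted p of 0.05, where 6.71% of all tested genes were above and 6.50% below (13.2% in all). Replicate 3 was above replicate 1 for 5 (Mmp2, Mmp3, Mmp10, Mmp13 and Timp3) and below it for Mmp11, where 5.11% of all tested genes were above and 4.05% below (9.15% in all). Between replicates 3 and 2, Timp3 was the 1 gene of the 10 that passed, where 1.69% of all tested genes were above and 0.712% below in replicate 3 (2.40% in all).

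The clustered enzymes were far lower in replicate 1 than in the other pairs. Mmp10 averaged 504 normalized counts over the irradiated and non-irradiated libraries of replicate 2 and 126 over those of replicate 3, against 10.4 over those of replicate 1. The log2 differences were 5.80 ± 0.57 for replicate 2 minus 1 and 3.81 ± 0.57 for replicate 3 minus 1 (SE, limma adjusted p = 0.000464 and 0.00366). Mmp3 averaged 392 normalized counts in replicate 2 and 160 in replicate 3, against 41.4 in replicate 1, which gave log2 differences of 3.26 ± 0.29 and 1.98 ± 0.29 (SE). Mmp13 averaged 237 in replicate 2 and 235 in replicate 3, against 18.4 in replicate 1. Its log2 differences were 3.61 ± 0.30 for both (SE, limma adjusted p = 0.000188 and 0.000157).

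**Figure D4:**
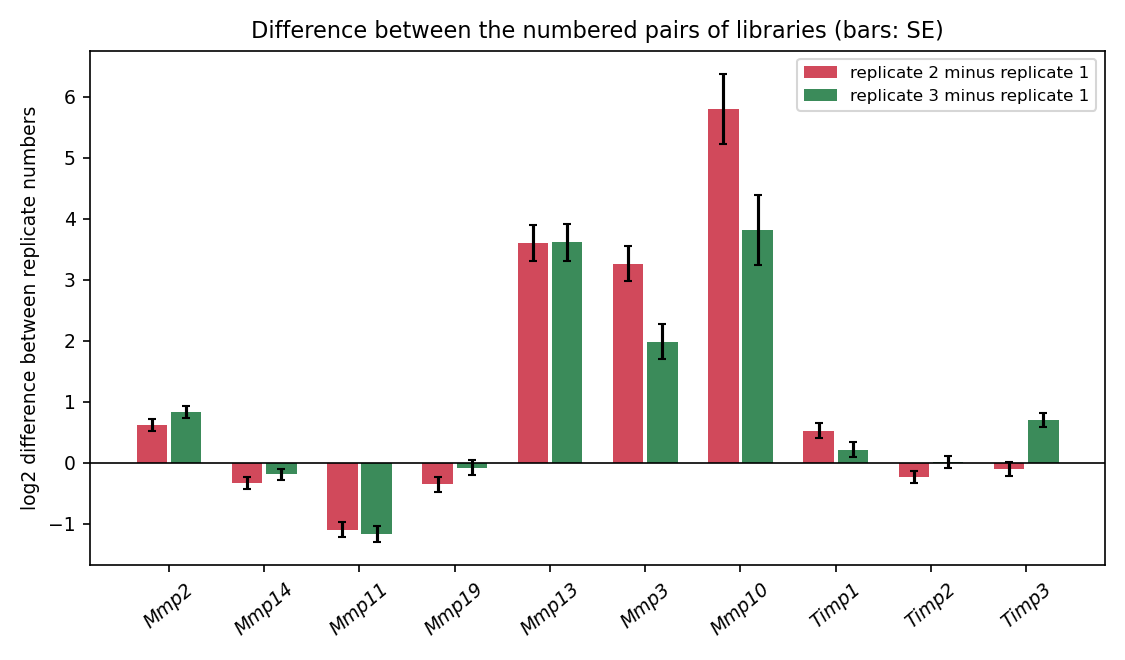
Log2 difference of replicate 2 minus replicate 1 (left bar of each pair) and replicate 3 minus replicate 1 (right bar) for the 10 genes, from limma with irradiation as a term, with error bars of 1 SE. Mmp13, Mmp3 and Mmp10 stand at 1.98 to 5.80, Mmp2 at 0.61 and 0.83, and Mmp11 at -1.10 and -1.17.

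Replicates 2 and 3 were both above replicate 1 at an adjusted p of 0.05 in limma for 2.99% of tested genes, and by over 3-fold in each for 0.669%. Mmp3, Mmp10 and Mmp13 are among the latter genes. They did not keep the same proportions: Mmp10 and Mmp3 were highest in replicate 2 in both groups, while Mmp13 was about as high in replicate 3. Replicate 2 minus replicate 3 could not be called for either stromelysin (replicate 3 minus 2 of -1.28 ± 0.29 for Mmp3 and -1.99 ± 0.57 for Mmp10, SE, limma adjusted p = 0.0600 and 0.124). Over the 6 libraries Mmp10 had a range of 7.03 on the log2 scale, the 32nd widest of 16141 tested genes.

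The more abundant enzymes moved less and not all the same way. Mmp2 averaged 22898 normalized counts in replicate 2 and 26491 in replicate 3, against 14945 in replicate 1, a log2 difference of 0.61 ± 0.10 and 0.83 ± 0.10 (SE, limma adjusted p = 0.00465 and 0.000936). Mmp11 went the other way, at 1173 in replicate 2 and 1111 in replicate 3, against 2497 in replicate 1, and was lower by a log2 difference of -1.10 ± 0.13 and -1.17 ± 0.13 (SE). Timp3 was set apart in replicate 3, with 145920 normalized counts, against 83587 in replicate 2 and 89551 in replicate 1. The replicate 3 minus 2 difference was 0.81 ± 0.11 on the log2 scale (SE, limma adjusted p = 0.00805). Timp1 averaged 38031 in replicate 2, against 26462 in replicate 1, a log2 difference of 0.53 ± 0.12 (SE).

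On chromosome 9 the 3 tested genes of the cluster differed between replicate numbers, and 0 of 7 tested genes on either side passed. Over all tested genes 13.4% passed, a share at which few of any 7 genes would. Whether the cluster genes and their neighbours differ from each other was not tested. In the RefSeq order of GRCm38.p6 the cluster runs Mmp13, Mmp12, Mmp1b, Mmp3, Mmp1a, Mmp10, Mmp8, Mmp27, Mmp20 and Mmp7. Of these Mmp12, Mmp1a, Mmp20 and Mmp7 have no row in the table. Mmp8, the neutrophil collagenase, had 0, 0 and 8.66 normalized counts in irradiated replicates 1, 2 and 3, against 0, 32.5 and 23.2 in the non-irradiated ones, and was too low for the test. Mmp1b and Mmp27 were lower still, at most 12.7 and 7.83 normalized counts in any library.

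**Figure D5:**
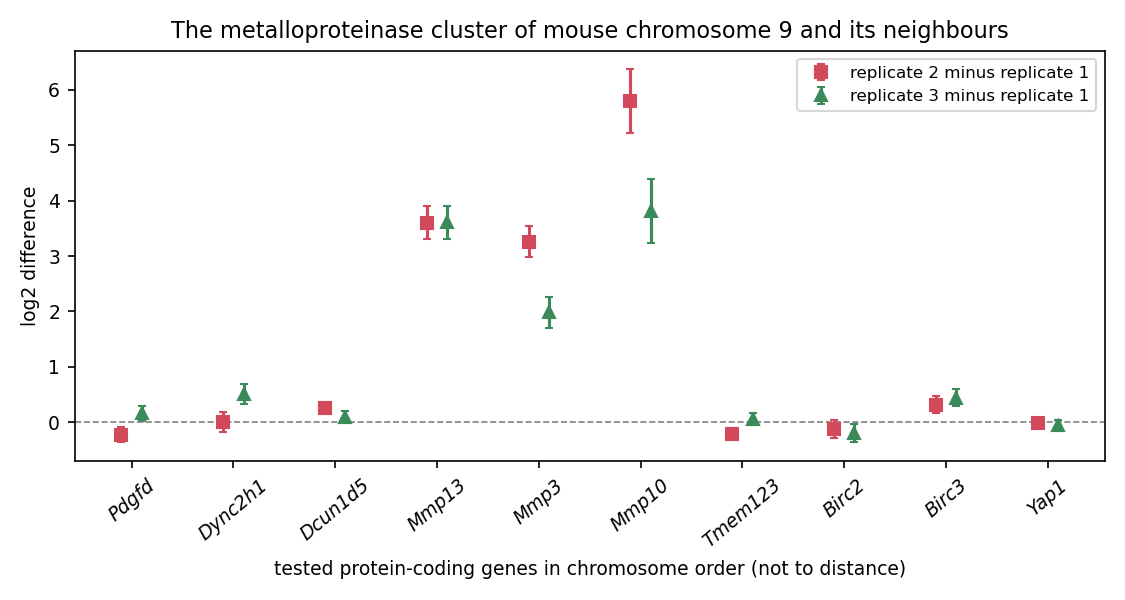
Log2 difference of replicates 2 and 3 minus replicate 1, with 1 SE, for tested protein-coding genes of the chromosome 9 metalloproteinase cluster and its neighbours, in chromosome order and not to distance. Mmp13, Mmp3 and Mmp10 stand at 1.98 to 5.80, and the 7 neighbours between -0.23 and 0.51.

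The flanking genes Pdgfd, Dync2h1 and Dcun1d5 on one side and Tmem123, Birc2, Birc3 and Yap1 on the other had replicate differences from -0.23 to 0.51 on the log2 scale. Their adjusted p for replicate number in limma ran from 0.138 to 0.891. Yap1, a transcriptional coactivator of the Hippo pathway, had 10217, 10559 and 10040 normalized counts in irradiated and 10090, 9439 and 9471 in non-irradiated replicates 1, 2 and 3. Birc3, an inhibitor of apoptosis, had 468, 642 and 659 in irradiated and 557, 628 and 732 in non-irradiated ones.

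The libraries of different replicate numbers differed in other genes too. Among the fibroblast markers, 6 of 10 differed between replicate numbers in limma at an adjusted p of 0.05, where 13.4% of all tested genes did. At that threshold replicate 2 was above replicate 1 for 1 of the 10 and below it for 4, where 6.71% and 6.50% of all tested genes were. Replicate 3 was above replicate 1 for 2 and below it for 5, where 5.11% and 4.05% were. The 1 marker above in both was Lum, a collagen-binding proteoglycan named after its values were seen. Lum had 50.3, 994 and 1063 normalized counts in irradiated replicates 1, 2 and 3, against 59.2, 1119 and 782 in the non-irradiated ones. Osteoblast and osteocyte markers other than Col1a1 summed to 211, 216 and 925 normalized counts in irradiated replicates 1, 2 and 3, against 292, 148 and 854 in the non-irradiated ones, with Bglap and Ibsp not in the table. Of these Alpl, alkaline phosphatase, had 538 and 503 normalized counts in irradiated and non-irradiated replicate 3 and at most 31.3 in any other library. Endothelial markers (5 of 6 in the table) summed to 605, 251 and 201 in irradiated and 617, 205 and 131 in non-irradiated replicates 1, 2 and 3, with Pecam1 at most 43.0 and 42.3. The list was not uniform. Tek (378 and 382 normalized counts in irradiated and non-irradiated replicate 1) and Kdr were highest in replicate 1 of both groups. Cdh5 (10.9 and 7.61 there) and Tie1 were lowest in it. Schwann cell markers (4 of 4 in the table) summed to 840 to 1389 normalized counts in irradiated and 966 to 1623 in non-irradiated libraries, and of 5 skeletal muscle markers only Des is in the table, with at most 71.1 and 75.3. Fewer cells of a type and less RNA per cell cannot be told apart in bulk RNA, and the part these markers have in the protease differences was not tested.

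Of 17 other family genes looked for, 11 have a row in the table and 8 were tested, with 0 higher and 0 lower in irradiated cells in limma and 0 at an unadjusted p under 0.05. The lowest p belonged to Mmp9, the second gelatinase, with 20.8, 34.2 and 77.0 normalized counts in irradiated replicates 1, 2 and 3, against 9.31, 24.3 and 57.4 in the non-irradiated ones. It was higher in 3 of 3 pairs at a log2 fold change of 0.66 ± 0.43 (SE, limma adjusted p = 0.995). Mmp25, a membrane-anchored enzyme of leukocytes, came next with 7.66, 0 and 22.1 normalized counts in irradiated and 26.2, 4.06 and 17.7 in non-irradiated libraries. Per kilobase of exon Mmp23 was the most abundant of these other genes, at 881 ± 95.4 normalized counts per kilobase (SD over the 6 libraries), between Mmp2 and Mmp11. Between replicate numbers 1 of the 8 differed in limma, near the 13.4% of all tested genes that did. It was Mmp28, a secreted protease of epithelia and other tissues. Mmp28 had 982, 462 and 528 normalized counts in irradiated and 1145, 307 and 569 in non-irradiated replicates 1, 2 and 3.

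Activators, inhibitors and clearance receptors of matrix proteases had 0 of 16 tested genes higher or lower in limma at an adjusted p of 0.05, and a median log2 fold change of 0.08. The lowest p were those of Plaur, the urokinase receptor, and Plau, urokinase, which starts plasmin-driven activation of metalloproteinase precursors. Plau had 21622, 21836 and 18548 normalized counts in irradiated replicates 1, 2 and 3, against 17223, 18590 and 12858 in the non-irradiated ones. The log2 fold change was 0.36 ± 0.08 (SE, limma adjusted p = 0.995), with 3 of 3 pairs higher. Plaur had 4411, 8356 and 10124 in irradiated and 3473, 6723 and 7116 in non-irradiated libraries (log2 fold change 0.39 ± 0.08, SE, limma adjusted p = 0.871). Between replicate numbers 7 of the 16 differed, where 13.4% of all tested genes did, among them Reck, a membrane-anchored inhibitor of metalloproteinases. Reck had 1739, 1077 and 1659 normalized counts in irradiated and 1870, 882 and 1874 in non-irradiated replicates 1, 2 and 3, lowest in replicate 2 of both groups.

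Matrix proteins that these enzymes cut had 0 of 15 tested genes higher or lower with irradiation in limma. Their median log2 fold change was 0.05 and 14 were above 0, where 51.5% of all tested genes were above 0. Several of these lay close to 0, Col3a1 at 0.02 among them. Equal library totals in place of the authors' size factors moved the median over all tested genes from 0.01 to -0.02. The count of 14 was not taken with that scaling. The lowest p was that of Tnc, the matricellular protein tenascin C. Tnc had 66404, 79829 and 77893 normalized counts in irradiated replicates 1, 2 and 3, against 65478, 61833 and 67482 in the non-irradiated ones. Between replicate numbers 8 of the 15 differed, beside the same 13.4%: 7 were lower and 1 higher in replicate 2 than in replicate 1. Col3a1, type III collagen, had 298103, 114441 and 98309 in irradiated and 326117, 109529 and 89796 in non-irradiated replicates 1, 2 and 3. In it replicate 1 was the highest, where the clustered proteases were the lowest.

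Transcription factors known to act on metalloproteinase promoters had 0 of 18 tested genes past the threshold for irradiation in limma. Their median log2 fold change was 0.19 and all 18 were above 0, where 51.5% of all tested genes were above 0. The AP-1 subunit Jund was closest to 0, at 0.005, and the count of 18 was not taken with equal library totals. The lowest p were those of Nr4a1, an orphan nuclear receptor (log2 fold change 0.81 ± 0.10, SE, limma adjusted p = 0.0908), and Fosb, an AP-1 subunit. Fosb had 126, 445 and 487 normalized counts in irradiated replicates 1, 2 and 3, against 66.0, 225 and 244 in the non-irradiated ones (log2 fold change 0.96 ± 0.18, SE, limma adjusted p = 0.514). Between replicate numbers, 10 of the 18 differed in limma, where 13.4% of all tested genes did. In replicate 3, 9 were higher and 0 lower than in replicate 1, where 5.11% and 4.05% of all tested genes were. In replicate 2, 6 were higher and 2 lower than in replicate 1, where 6.71% and 6.50% of all tested genes were. Of the AP-1 subunits Fosl1, chosen for naming after its values were seen, had 714, 2109 and 2435 normalized counts in irradiated and 746, 1300 and 1747 in non-irradiated replicates 1, 2 and 3. Fosb, Fosl1, Jun and Junb were lowest in replicate 1 of both groups, as were Mmp3, Mmp10 and Mmp13, but Fos, Fosl2 and Jund were not. Jund had 6307, 4118 and 5810 normalized counts in irradiated and 5691, 4781 and 5488 in non-irradiated replicates 1, 2 and 3, highest in replicate 1 of both groups. Fos had 317, 394 and 370 in irradiated and 286, 283 and 263 in non-irradiated ones, and did not pass for replicate number (limma adjusted p = 0.846). Whether these levels bear on the proteases was not tested.

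By the smallest root mean square difference between centred log2 profiles over the 6 libraries, the gene most like Mmp3 was Dkk2, a secreted Wnt modulator (0.27 log2). For Mmp10 it was Akr1c18, an aldo-keto reductase (0.75), and for Mmp13 the potassium channel gene Kcnq5 (0.27). Dkk2 had 152, 1226 and 618 normalized counts in irradiated and 186, 1311 and 822 in non-irradiated replicates 1, 2 and 3, the order of Mmp3. The nearest to Mmp2 was Cavin3 (0.05), to Mmp11 Parp10 (0.08) and to Timp3 Stox2 (0.04). The nearest genes to Mmp14, Mmp19, Timp1 and Timp2 were Tnfrsf1a, Lrig2, Tbl3 and Klhl26 at 0.02 to 0.03.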

How the data were processed

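RNA-seq of 6 libraries was used as 1 table of normalized counts. The submitters' processing notes name the tools HISAT2 2.2.1, StringTie 2.1.7, FastQC 0.11.9 and Trimmomatic 0.39 and the build GRCm39, with no order, counter, strand setting or annotation release. Per the file headers, the authors deposited DESeq2 normalized counts, a signal equal to the gene count over a size factor of the library. They also deposited, per the file headers, a log2 fold change and SE, a test statistic, which is a score, and raw and adjusted p-values. Of 20745 rows, 80 repeated an identifier and were dropped. In each library 100% of values were whole multiples of the smallest one, within 0.001 reads, so reads could be recovered.

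The 16141 genes that reached 10 normalized counts in 3 libraries or more entered limma 3.58.1 (R 4.3.3) as log2(normalized count + 1) (eBayes with a trend, 2-sided, Benjamini-Hochberg over all genes, threshold 0.05), with the replicate number of the titles as a block (2 residual degrees of freedom). Adding 1 pulls the log2 ratio of a low gene in each pair toward 0. The fitted estimate can still exceed that of other fits: for Mmp10 it was 0.47 here and 0.018 in edgeR with the block. The block was used because the rule for the members pairs same-numbered columns and the deposited results carry a replicate term. With that term, DESeq2 1.42.0 on recovered reads gave log2 fold changes at most 0.000861 from those in the authors' deposited table, and without it up to 8.61 away. The labels do not say what the numbers mark. Over 13054 genes, deviations from the group means correlated at 0.64, 0.47 and 0.57 between same-numbered libraries and at -0.48 to 0.01 between others. Deviations sum to 0 within each group, so these correlations depend on one another. The same fit gave the F test of replicate number and its contrasts. edgeR 4.0.16, DESeq2, voom, other scalings, filters and pseudocounts and left-out libraries were alternatives; the fits were checked on simulated data.

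The members, gene lists and tests were chosen with earlier results of these data known. Named genes are the 10 members, the family genes, the 2 of smallest p in each list, and the gene of nearest profile among named genes averaging 50 normalized counts or more. All other genes named (markers, cluster neighbours, overlap partners, Reck, Col3a1, Fosl1, Fosl2, Jun, Junb, Jund and Fos) were chosen after their values were seen. A gene that the rule names is not reported here. Lengths, exon overlaps and shared 50-base stretches come from GENCODE M21 (GRCm38), matched by identifier, another build than the authors' one.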

Additional observations from a re-analysis of the deposited data

How the results depend on the processing

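With 2 groups of 3 libraries paired by number, the fits leave few degrees of freedom, and calls over all genes depend on the fit. The count of genes differing with irradiation, 3 in limma with the block, was 0 without the replicate block, 0 without a filter on low values and 0 without a trend. It was 25 in DESeq2 with the block (17 higher with irradiation, 8 lower) and 24 in the authors' deposited table (16 higher, 8 lower). When libraries were left out it was 0 to 64, highest without both replicate 3 libraries. None of the 10 metalloproteinase and TIMP genes was called in any of these 23 alternatives, and the block changed none of their calls. Their log2 fold changes kept their direction in 196 of 230 values.

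The direction turned for Timp1 with equal library totals (-0.017), TMM (-0.00031), edgeR (-0.00049) and voom (-0.0032), for Timp2 with equal totals (-0.011) and for Mmp10 in voom (-0.33). With libraries left out, with or without the block, the log2 fold change ran from -0.31 to 0.17 for Mmp2, -1.22 to 0.53 for Mmp3, -1.54 to 1.98 for Mmp10, -0.58 to 0.18 for Mmp11 and -1.58 to 0.83 for Mmp13. It ran from -0.16 to 0.055 for Mmp14, -0.22 to 0.012 for Mmp19, -0.18 to 0.20 for Timp1, -0.062 to 0.092 for Timp2 and -0.10 to 0.40 for Timp3. These ranges pool fits with and without the block. With both libraries of a replicate number left out and the block kept, Mmp3 ran from -0.58 to -0.24. Mmp13 ran from -0.41 to -0.27 in those fits, and Mmp10 from -0.34 to 0.90. The fits without the block left out 1 library, which made the replicate numbers unequal between the groups. Both ends of the ranges of Mmp3, Mmp10 and Mmp13 came from fits without the block. The cause was not tested.

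Between replicate numbers 6 to 8 of the 10 genes differed in every alternative, some of which were chosen after seeing the data. The count over all genes, 2165, was 1154 without a filter and 2133 to 4498 with 1 library left out, highest without irradiated replicate 2. Timp1 did not pass in edgeR (adjusted p = 0.0600), with a pseudocount of 0.5 (0.0513), with TMM factors (0.05005), without a filter (0.136), or in limma without irradiated replicate 3 (0.0649), non-irradiated replicate 1 (0.0758) or non-irradiated replicate 3 (0.0600), and Mmp14 passed with quantile normalization (0.0231) or without non-irradiated replicate 2 (0.0255). Leaving out libraries, replicate 3 minus 1 ran from -0.21 to 0.042 for Mmp19 and -0.079 to 0.086 for Timp2, and replicate 2 minus 1 from -0.26 to 0.044 for Timp3. Mmp3, Mmp10 and Mmp13 had 4 to 63 reads in replicate 1, so counting error is large there. Non-irradiated replicate 1 nevertheless had the most reads of all libraries.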
